A study of Homo sapiens with 10 samples.

Results

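The keratin KRT8 and its 4 named partners among the simple epithelial keratins, KRT18, KRT19, KRT7 and KRT80, were followed in RNA-seq libraries of wild-type tumour spheroids and of spheroids targeted at SAMHD1, the gene of an enzyme that degrades deoxynucleotide triphosphates. KRT8 was chosen because its level was lower in clone A1 than in wild-type (WT) spheroids in both pairs of experiments, and the others because they are keratins of the same kind of epithelium. Of the 5 named genes, 2 were among the 13920 genes listed in the deposited count table, KRT8 and KRT18. KRT19, KRT7 and KRT80 were outside the genes listed and were not analysed here, so the comparison of KRT8 with its partners came down to KRT18.

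The 10 libraries were made from spheroids labelled as the breast cancer line T47D, which is described as luminal and oestrogen receptor positive. They comprised 4 WT libraries, 4 libraries of SAMHD1-KO clone A1 and 2 libraries of SAMHD1-KO clone A2, and both clones came from CRISPR-Cas9 targeting of SAMHD1 at exon 5. WT and clone A1 were each sequenced in experiments 10, 11, 15 and 16 of the labels, and clone A2 only in experiments 15 and 16. No drug treatment or second gene change was given in the labels for any group, each knockout group was a single clone, and each library held between 40077369 and 51311482 counts.

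SAMHD1 itself was still transcribed in both clones. It lay between 49.8 and 56.4 CPM (counts scaled to the size of the library, the usual unit for comparing libraries) in WT, at 22.5 and 23.0 CPM in clone A1 in experiments 10 and 11, at 6.44 and 6.15 CPM in clone A1 in experiments 15 and 16, and at 23.6 and 20.2 CPM in clone A2. All 6 SAMHD1-KO libraries were thus below all 4 WT libraries. The libraries of clone A1 fell into separate levels in experiments 10 and 11 and in experiments 15 and 16. These are called the early and the late pair here by their numbers alone, since the labels do not say what set them apart. WT and clone A1 were therefore compared within each pair of experiments.

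Keratins form the intermediate filaments of epithelial cells. A type II keratin such as KRT8 pairs with a type I keratin such as KRT18, and neither forms filaments without a partner of the other type. KRT8 and KRT18 are the pair of simple, single-layered epithelia, including the luminal cells of the breast, where KRT19 and KRT7 are commonly found beside them. The filaments are anchored at desmosomes, the junctions between epithelial cells, and at hemidesmosomes, the junctions with the underlying matrix.

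Several marker genes went against the label before any comparison was made. Of 14 luminal breast markers, 10 were listed, and the defining epithelial and receptor genes were near 0: CDH1 (E-cadherin) ranged from 0.684 to 2.16 CPM, EPCAM from 0.348 to 1.78 CPM and ESR1 (oestrogen receptor) from 0.183 to 1.59 CPM over the 10 libraries. TFF1, TFF3, AGR2 and CLDN7 were outside the genes listed. The luminal transcription factors GATA3, at 15.4 to 24.8 CPM, and FOXA1, at 14.1 to 26.8 CPM, were present, as was the progesterone receptor PGR at 15.4 to 20.7 CPM. XBP1, another luminal marker, lay at 40.7 to 65.3 CPM. Of 14 mesenchymal markers, 9 were listed. The mesenchymal filament gene VIM lay at 1180 to 1520 CPM and CDH2 (N-cadherin) at 118 to 158 CPM. Others were low, with COL1A1 at 5.91 to 11.4 CPM, COL3A1 at 1.66 to 17.9 CPM and PDGFRA at 1.78 to 9.27 CPM. COL1A2, PDGFRB, LUM, DCN and FAP were outside the genes listed. These libraries are called here by their label, T47D, with the reservation that their levels of CDH1, EPCAM, ESR1, VIM and CDH2 are not those of a luminal line.

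**Figure D1:**
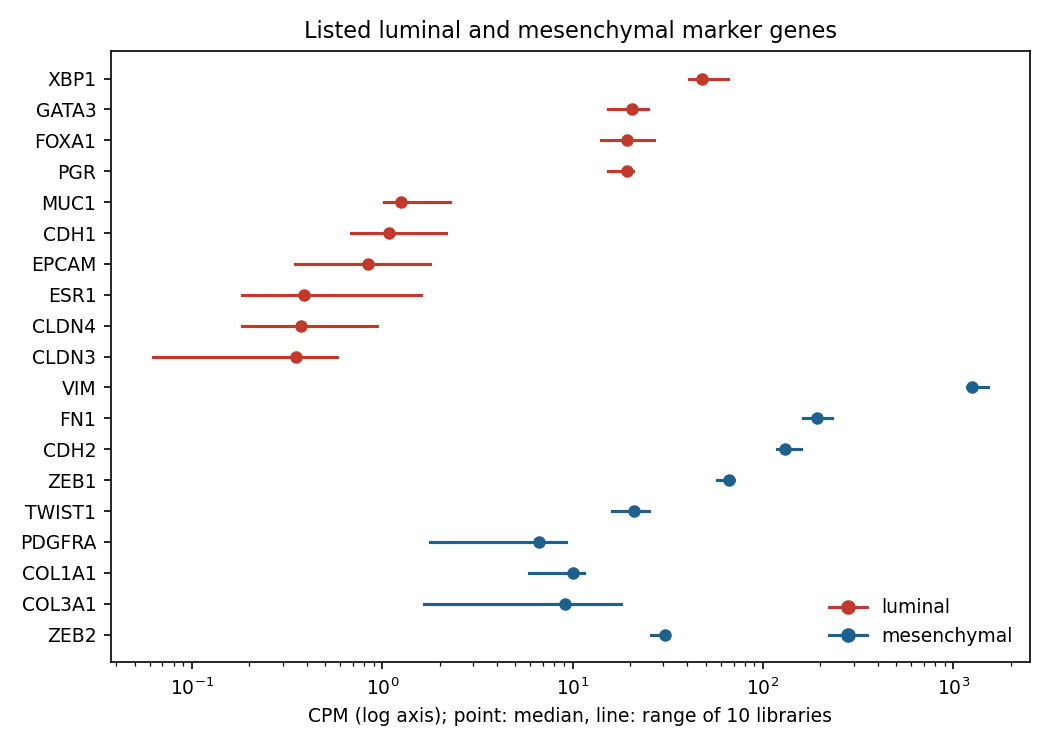
Levels of the listed luminal (red) and mesenchymal (blue) marker genes, in CPM on a logarithmic axis. Each point is the median and each line the range over 10 libraries, and CDH1, EPCAM, ESR1, CLDN3 and CLDN4 sit near or under 1 CPM while VIM, FN1 and CDH2 sit above 100 CPM.

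KRT8 and KRT18 lie next to each other in the type II keratin cluster on human chromosome 12, on opposite strands. In GRCh38 the main GENCODE transcript of KRT8 (gene identifier 3856 in the count table) covers chr12:52897191-52905076 on the minus strand, with 8 exons and 1784 bases. That of KRT18 (identifier 3875) covers chr12:52949118-52952906 on the plus strand, with 7 exons and 1413 bases.

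KRT8 was a low transcript in all libraries. In WT it was at 9.07, 8.30, 6.86 and 7.74 CPM in experiments 10, 11, 15 and 16, from 418, 407, 272 and 397 counts. In clone A1 it was at 4.04, 5.02, 4.93 and 4.04 CPM in the same order, from 195, 231, 216 and 176 counts. In clone A2 it was at 4.37 and 3.10 CPM in experiments 15 and 16, from 195 and 159 counts. The lowest WT library stood above the highest SAMHD1-KO library, so the WT and knockout values did not overlap. The selection fixed this for clone A1, and clone A2 was set against the same WT libraries, so the gap is a description.

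Counting error was 1 part of the spread. The exact Poisson 95% interval was 6.996 to 8.54 CPM for WT in experiment 16 and 2.64 to 3.63 CPM for clone A2 in the same experiment. The intervals cover counting error only, and those of the clone A2 libraries, 3.78 to 5.03 CPM and 2.64 to 3.63 CPM, did not overlap. In bulk RNA, fewer cells with the transcript and less transcript in each cell cannot be told apart.

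By group, KRT8 averaged 8.68 ± 0.541 CPM (SD, n = 2) in WT and 4.53 ± 0.694 CPM (SD, n = 2) in clone A1 in experiments 10 and 11. In experiments 15 and 16 it averaged 7.30 ± 0.624 CPM (SD, n = 2) in WT, 4.49 ± 0.633 CPM (SD, n = 2) in clone A1 and 3.74 ± 0.897 CPM (SD, n = 2) in clone A2. The order was WT, clone A1, clone A2 in the late pair, and the values of the clones overlapped. The fitted log2 fold changes against WT were -0.94 for clone A1 in the early pair, -0.70 for clone A1 in the late pair and -0.97 for clone A2, which left 52.2%, 61.4% and 50.9% of the WT level. No test was made on these values, since KRT8 was picked on them or on the same WT libraries. With 1 library of clone A2 left out, the log2 value for clone A2 ran from -1.23 (without experiment 15) to -0.74 (without experiment 16).

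KRT18, the type I partner, was lower in the clones too, by a smaller fold. In WT it was at 54.1, 60.3, 45.1 and 42.9 CPM in experiments 10, 11, 15 and 16. In clone A1 it was at 43.5, 51.4, 36.4 and 36.3 CPM in the same order. In clone A2 it was at 39.6 and 38.0 CPM in experiments 15 and 16. All 6 SAMHD1-KO libraries lay below the WT library of their own experiment, but the groups overlapped when the experiments were pooled, since clone A1 in experiments 10 and 11 reached or passed WT in experiments 15 and 16.

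**Figure D2:**
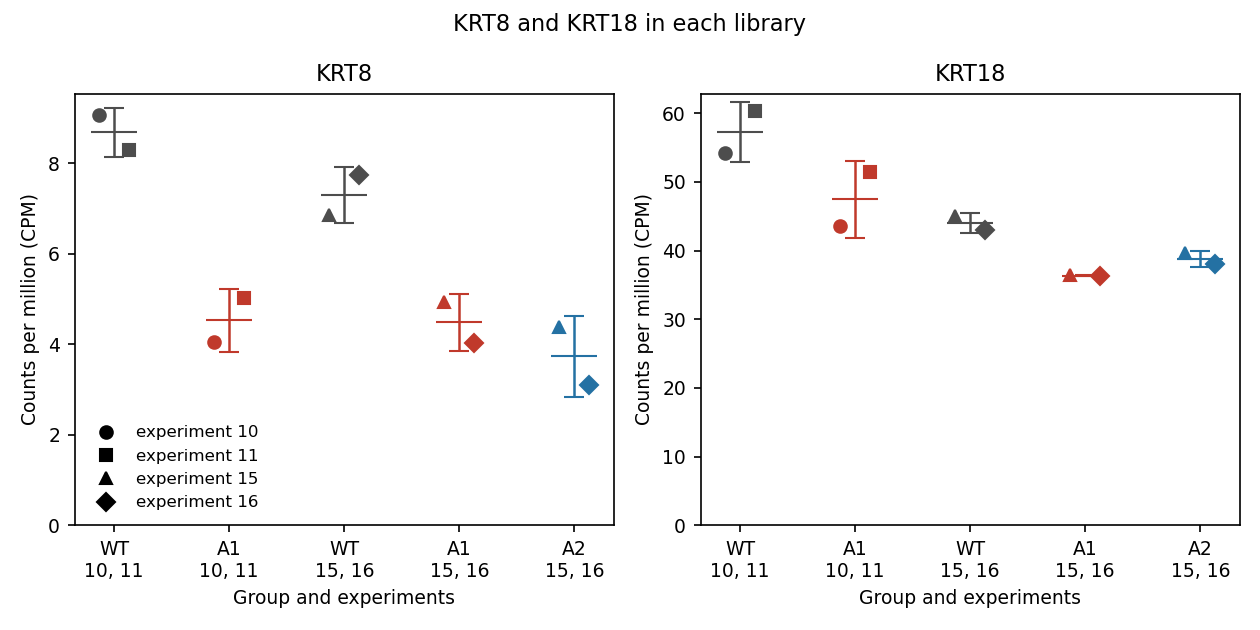
KRT8 (left) and KRT18 (right) in CPM for each library, by group and pair of experiments, with horizontal bars at group means and error bars of 1 SD (n = 2). KRT8 lies at 6.86 CPM or more in WT and at 5.02 CPM or less in the clones, while KRT18 is lower in each clone library than in the WT library of the same experiment.

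By group, KRT18 averaged 57.2 ± 4.37 CPM (SD, n = 2) in WT and 47.5 ± 5.61 CPM (SD, n = 2) in clone A1 in experiments 10 and 11. In experiments 15 and 16 it averaged 44.01 ± 1.503 CPM (SD, n = 2) in WT, 36.3 ± 0.0958 CPM (SD, n = 2) in clone A1 and 38.8 ± 1.17 CPM (SD, n = 2) in clone A2.

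The difference of KRT18 between clone A1 and WT had similar fitted values in both pairs of experiments but did not pass the test over all genes. The log2 fold change was -0.28 in the late pair (SE 0.088, 95% interval -0.46 to -0.090), with an adjusted p of 0.0633 by edgeR's quasi-likelihood test with Benjamini-Hochberg adjustment. In the early pair it was -0.27 (SE 0.086), with an adjusted p of 0.328. KRT18 was thus not called in either pair, where 8.24% and 0.194% of the 13920 genes tested were called. The change of the clone A1 effect between the pairs was -0.0062 (95% interval -0.27 to 0.25), with an adjusted p of 0.990 by edgeR, in a comparison that called 2.5% of genes.

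Those calls depended on the settings. In the late pair KRT18 passed the threshold in 6 of 16 alternatives. These were the fit with experiments as blocks, and in edgeR the fits with only the libraries compared (adjusted p 0.0159), with an offset for GC content (0.0239), without the WT library of experiment 10 (0.0211) or of experiment 11 (0.0211), and DESeq2 (0.0482). In the early pair it passed in 2 of 16, with the blocks and without the WT library of experiment 10, at a log2 fold change of -0.35 and an adjusted p of 0.0252 by edgeR, and the log2 value was -0.15 without the clone A1 library of experiment 10. The direction was lower in each of the 16 alternatives in both pairs. KRT8 and KRT18 have GC-rich transcripts, at 59.3% and 58.2%, and the WT library of experiment 11 carried a trend of 0.169 and 0.156 log2 units at their GC contents, against -0.0754 to 0.0409 in the other 9 libraries. With that trend removed, the log2 fold change of KRT18 in the early pair was -0.16 (adjusted p 0.453 by edgeR) and that of KRT8 was -0.82.

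For clone A2 against the same WT libraries, the log2 fold change of KRT18 was -0.18 (SE 0.087, 95% interval -0.37 to 0.0033). It was not called, at an adjusted p of 0.179 by edgeR, where 16.4% of genes were called, and passed in 1 of 16 alternatives, with the blocks. Between the clones KRT18 differed by 0.095 on the log2 scale (95% interval -0.091 to 0.28, adjusted p 0.665 by edgeR) and was again not called, where 4.14% of genes were. KRT8 was 0.27 lower in clone A2 than in clone A1 on the same scale, at a log2 fold change of -0.27, with no test. With 1 library left out that value ran from -0.53 (without clone A2 of experiment 15) to -0.038 (without clone A2 of experiment 16), and it was -0.12 and -0.41 without the clone A1 libraries of experiments 15 and 16.

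With both clones averaged against WT in experiments 15 and 16, KRT18 was called lower, with a log2 fold change of -0.23 (SE 0.075, 95% interval -0.39 to -0.070) and an adjusted p of 0.0493 by edgeR, or 85.3% of the WT level. In that comparison 15.6% of genes were called. KRT8 stood at -0.84 there, untested. The KRT18 call rested on a narrow margin. The edgeR adjusted p was 0.0954 and 0.102 without the clone A1 libraries of experiments 15 and 16, 0.0712 and 0.135 without those of clone A2, and 0.332 and 0.142 without those of WT. It was also 0.0516 with RLE normalization in place of TMM.

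**Figure D3:**
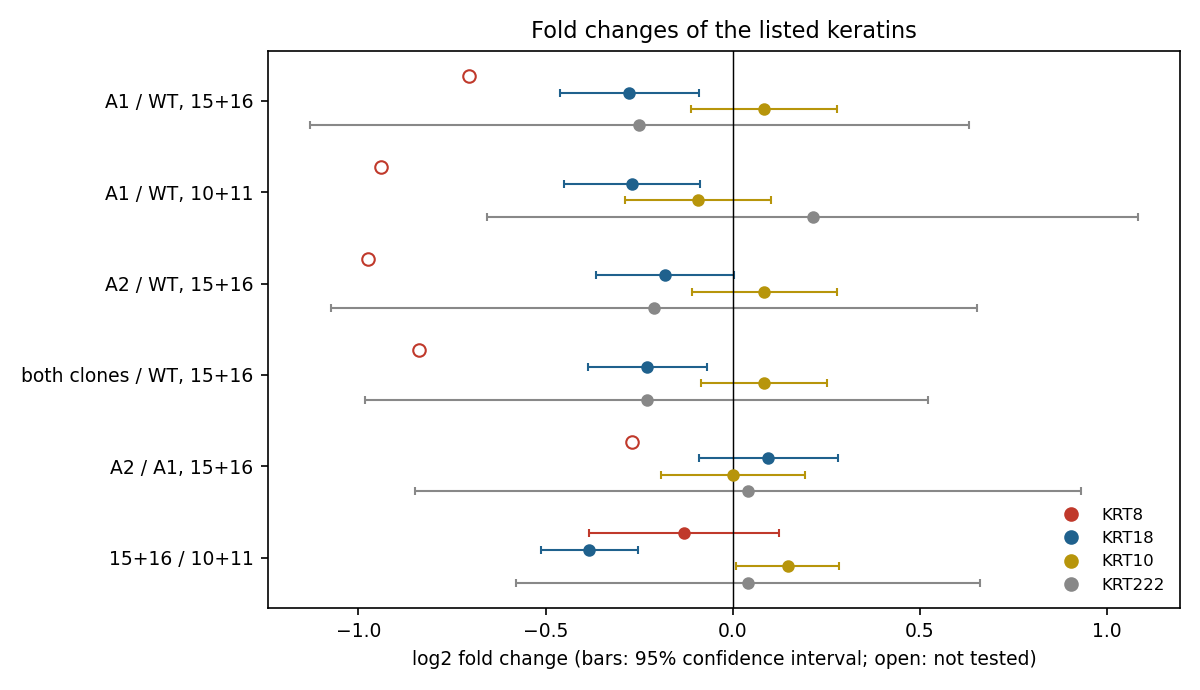
Log2 fold changes of the 4 listed keratins in 6 comparisons, with the groups named on the vertical axis, numbers for experiments, and bars for 95% confidence intervals. Open circles mark KRT8 where it was not tested, between -0.97 and -0.27, and KRT18 lies between -0.28 and -0.18 in the comparisons of a clone with WT.

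KRT18 also differed between the pairs of experiments, and KRT8 was not called there. Averaged over WT and clone A1, KRT18 was called lower in the late pair than in the early one, with a log2 fold change of -0.38 (SE 0.061) and an adjusted p of 0.0001 by edgeR, which left 76.7%. KRT8, tested here because this contrast is balanced over the clone effect, had a log2 fold change of -0.13 (95% interval -0.38 to 0.12) and an adjusted p of 0.398 by edgeR. This comparison called 45.6% of genes, so 1 called keratin of 2 was near that background. KRT18 was called in it under all 15 alternatives and KRT8 under none. What set the pairs of experiments apart was not given in the labels.

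KRT18 exceeded KRT8 in each library when both were divided by transcript length. On that scale, CPM per kilobase, KRT8 ranged from 1.74 to 5.08 and KRT18 from 25.7 to 42.7 over the 10 libraries. The ratio of KRT18 to KRT8 was 7.54, 9.17, 8.30 and 7.01 in WT in experiments 10, 11, 15 and 16. It was 13.6, 12.9, 9.31 and 11.3 in clone A1 in the same order, and 11.4 and 15.4 in clone A2. The lowest knockout ratio was just above the highest WT ratio, and since KRT8 was selected for its fall this is a description of the selection as well as of KRT18.

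**Figure D4:**
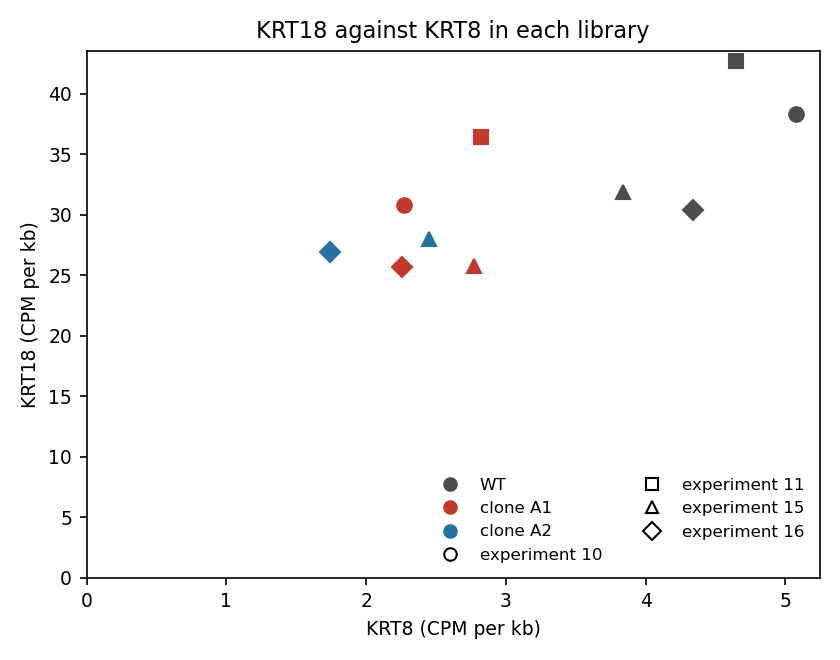
KRT18 against KRT8 in CPM per kilobase of transcript, 1 point for each of the 10 libraries, with colours for WT, clone A1 and clone A2 and symbols for experiments. The clones lie to the left of WT, at 2.82 or less on the KRT8 axis, and experiments 15 and 16 lie lower on the KRT18 axis.

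Neither value can be tied to these genes without reserve. Exons of KRT8 and KRT18 overlap on opposite strands over 525 bases between chr12:52949216-52949954, of which 375 lie in the main KRT18 transcript and 0 in the main KRT8 transcript. Whether the counting used strand was not given in the sources used here, so reads from that stretch cannot be assigned. GENCODE annotates 51 pseudogenes of KRT8 and 68 of KRT18, none of them among the listed genes, and how reads that match several copies were counted was not given either.

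The other listed keratins were called in no comparison. KRT10, a type I keratin of the upper epidermis, ranged from 15.7 to 19.7 CPM, and KRT222 from 0.314 to 0.683 CPM. Neither was called in any of the 7 comparisons by edgeR or by DESeq2, and 1 value, that of KRT10 between the pairs of experiments, had an unadjusted p under 0.05. For KRT10 the log2 fold change of clone A1 against WT was 0.083 (adjusted p 0.663 by edgeR) in the late pair and -0.093 (adjusted p 0.701) in the early pair.

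Set among the other intermediate filament genes, KRT18 was a middling and KRT8 a low transcript. VIM, the filament gene of mesenchymal cells, had a median of 587 CPM per kilobase, the nuclear lamin gene LMNB1 had 101 and KRT18 had 30.6, next to LMNA at 30.8 and the neuronal filament gene INA at 28.3. The ranges of these last 3 overlapped. KRT10 had a median of 8.24 and KRT8 of 2.79 CPM per kilobase, below the neural progenitor filament gene NES at 3.5, whose range overlapped with that of KRT8. GFAP and PRPH, filament genes also listed, were not placed on this scale. They lay at 0.868 CPM or less and 1.02 CPM or less, with KRT8 at 3.10 CPM or more.

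**Figure D5:**
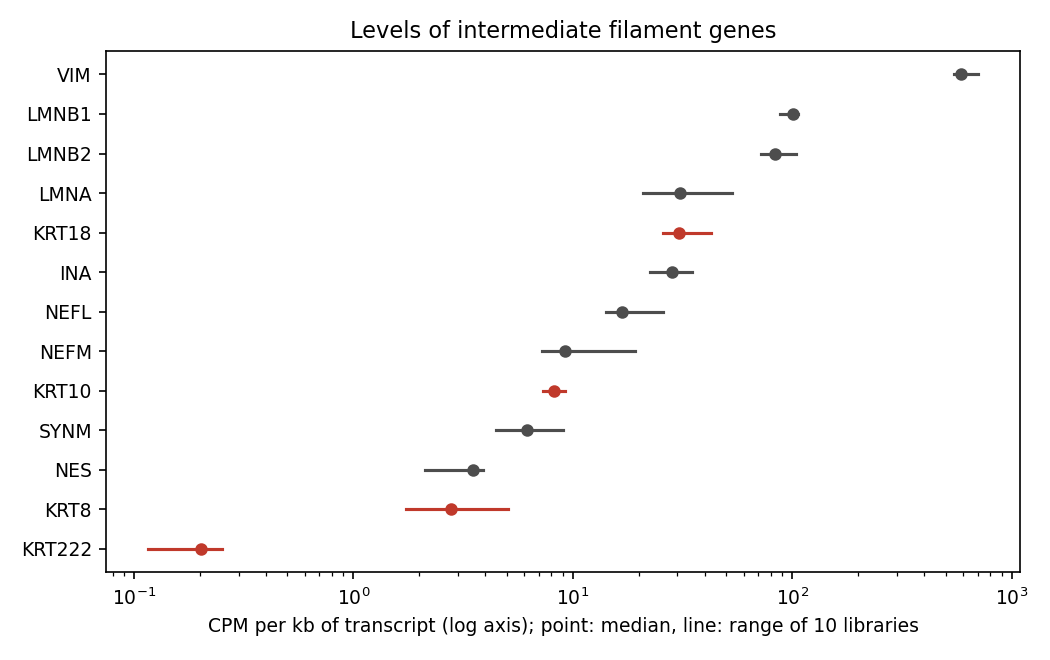
Levels of 13 intermediate filament genes in CPM per kilobase of transcript on a logarithmic axis, with keratins in red. The listed filament genes GFAP and PRPH are not shown. Points are medians and lines ranges over 10 libraries, from VIM at a median of 587 to KRT222 at 0.202.

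Other filament genes were called between the clones and WT, in both directions. Of the 11 listed, 3 were called lower and 0 higher in late clone A1 libraries, and the median log2 value over the list was -0.149 against 0.00314 over all genes, of which 8.24% were called in either direction. LMNA, a component of the nuclear lamina, was at 95.8 and 99.97 CPM in WT and at 66.6 and 68.8 CPM in clone A1, a log2 fold change of -0.53 (SE 0.097, adjusted p 0.0029 by edgeR). The muscle and neural filament gene SYNM fell by 0.44 on the log2 scale and the neurofilament gene NEFM by 0.59.
In clone A2, 3 of the 11 were called lower and 2 higher, where 16.4% of all genes were called. LMNA was lower there as well, at a log2 fold change of -0.47 (adjusted p 0.00325 by edgeR), whereas NEFM was higher, at 59.4 and 63.1 CPM against 35.3 and 36.6 CPM in WT. NEFM thus passed the test in opposite directions in the clones, and the clones differed by 1.36 on the log2 scale (adjusted p 2.11e-07 by edgeR). VIM had log2 fold changes of 0.017 in clone A1 and -0.073 in clone A2 and was called in neither. In the early pair 0 of the 11 were called in clone A1 by edgeR or DESeq2, and 1 had an unadjusted p under 0.05, in a comparison that called 0.194% of all genes. Without the WT library of experiment 10, 4 of the 11 were called there.

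Genes that anchor keratin filaments showed no common direction. Of 13 listed desmosome and hemidesmosome genes, 3 were called higher and 1 lower in clone A1 in experiments 15 and 16, 2 higher and 3 lower in clone A2, and 0 in clone A1 in experiments 10 and 11 by edgeR or DESeq2, where 3 had an unadjusted p under 0.05. All genes were called at 8.24%, 16.4% and 0.194% in these comparisons. The counts rested on single libraries. In late clone A1 libraries the 4 calls became 1 without the clone A1 library of experiment 16 or the WT library of experiment 15, and 2 without the clone A1 library of experiment 15 or the WT library of experiment 16. In clone A2 the 5 calls became 0 without the WT library of experiment 15, 1 without the clone A2 library of experiment 16, and 2 without the clone A2 library of experiment 15 or the WT library of experiment 16. In the early pair 3 were called without the WT library of experiment 10. DST, a plakin of hemidesmosomes, was called higher in late clone A1 libraries at a log2 fold change of 0.23 (adjusted p 0.038 by edgeR). Its log2 value stayed between 0.196 and 0.276 over the alternatives, but the call was lost in several of them. ITGA6, an integrin of hemidesmosomes, was at 34.5 and 36.7 CPM in WT and at 50.7 and 52.5 CPM in clone A1, a log2 fold change of 0.54 (adjusted p 0.000532 by edgeR). COL17A1, a collagen of hemidesmosomes, had a log2 fold change of -0.88 in clone A1, and its adjusted p of 0.0145 by edgeR rose to 0.0603 and 0.0937 without the WT libraries of experiments 15 and 16 and to 0.0682 and 0.120 without those of clone A1. DSP, the desmosomal plakin that binds keratin filaments, lay at 162 to 172 CPM in WT and 145 to 159 CPM in clone A1 and was not called (adjusted p 0.262 by edgeR). Between the pairs of experiments DSP was called lower, at a log2 fold change of -0.44.

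Genes whose products bind keratin filaments or help assemble them were called in clone A2, and their number depended on the settings in both clones. Of 18 listed, 0 were called in clone A1 in either pair by edgeR or DESeq2, with 2 (late) and 4 (early) at an unadjusted p under 0.05, and 1 higher and 4 lower in clone A2, against 8.24% (late), 0.194% (early) and 16.4% (clone A2) of all genes. In late clone A1 libraries 1 was called in 5 of 16 alternatives (the GC offset, the blocks, only the libraries compared, and without the WT library of experiment 10 or of experiment 11), and in early ones 2 were called in 2 of 16 (the blocks, and without the WT library of experiment 10). In clone A2 the number was 1 without its library of experiment 16, 2 without its library of experiment 15 or either WT library of that pair, and 3 without the clone A1 library of experiment 10 or of experiment 11. YWHAH, a 14-3-3 protein of the family that binds phosphorylated KRT18, lay at 50.0 and 52.0 CPM in clone A2 and at 73.4 and 74.6 CPM in WT, a log2 fold change of -0.54 (adjusted p 8.52e-05 by edgeR). In clone A1 it lay at 71.3 and 74.2 CPM in the same experiments. The change of YWHAH was called between the clones too, at a log2 fold change of -0.51.

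Transcription factors of simple and luminal epithelium were called in each comparison of a clone with WT and between the pairs of experiments. Of 23 listed, 4 were called higher and 0 lower in clone A1 in experiments 15 and 16, 0 higher and 2 lower in experiments 10 and 11, 4 higher and 3 lower in clone A2, and 6 higher and 10 lower between the pairs. Over all genes 8.24%, 0.194%, 16.4% and 45.6% were called in these comparisons, in the same order of size. The 4 calls in late clone A1 libraries became 2 without the clone A1 or the WT library of experiment 15, and the 7 in clone A2 became 4 without the WT library of experiment 15 or of experiment 16. KLF5, an epithelial Kruppel-like factor, was at 16.9 and 17.3 CPM in WT, 24.7 and 24.8 CPM in clone A1 and 26.9 and 28.5 CPM in clone A2 in experiments 15 and 16. Both clones were above WT, with log2 fold changes of 0.53 and 0.70. FOXA1, a factor of luminal cells, was higher in clone A1 in that pair, with a log2 fold change of 0.47 (adjusted p 0.00363 by edgeR), and in clone A2, at 0.32 (adjusted p 0.0217). The FOXA1 call in clone A2 was lost in some alternatives. XBP1 was called higher in clone A1, at 0.28 (adjusted p 0.034 by edgeR), and lower in clone A2, at -0.28 (adjusted p 0.0245). Both XBP1 calls were lost in some alternatives. Between the clones XBP1 differed by -0.56 (adjusted p 0.000316 by edgeR).
TFAP2C, another factor of luminal cells, was lower in clone A2, with a log2 fold change of -0.76 (adjusted p 7.77e-05 by edgeR). FOS and JUNB, subunits of AP-1, were the 2 called in experiments 10 and 11. FOS was at 26.1 and 29.2 CPM in WT and 16.4 and 17.1 CPM in clone A1, and its edgeR adjusted p of 0.00216 became 0.0541 and 0.0530 without the clone A1 libraries of experiments 10 and 11. JUNB fell by 0.66 on the log2 scale, and its adjusted p of 0.0129 became 0.358 and 0.0922 without the same libraries. The luminal marker list as a whole summed to 108.7 to 117.7 CPM in WT, 108 to 133 CPM in clone A1 and 104.8 to 108.8 CPM in clone A2, and the part of these levels in the values of KRT8 and KRT18 was not tested.

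Genes around KRT8 and KRT18 on chromosome 12 varied widely about a median near 0. Of the 29 other listed genes within 1 Mb of KRT8, none a keratin, 0 were called in clone A1 in either pair by edgeR or DESeq2, with 4 (late) and 3 (early) at an unadjusted p under 0.05, and 1 was called lower in clone A2, where 8.24%, 0.194% and 16.4% of all genes were called. Their median log2 fold change was -0.0893 and -0.0927 for clone A1 in the late and early pair and -0.0833 for clone A2, with all genes at medians of 0.00707 or less in size. Single neighbours ran from -0.88 to 0.146 (clone A1, late), from -0.806 to 0.36 (clone A1, early) and from -0.789 to 0.583 (clone A2). The value of KRT8 lay inside this range in the late clone A1 libraries, at -0.70, and below it in the early ones, at -0.94, and in clone A2, at -0.97.

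Across the 10 libraries KRT18 was not among the 5 genes most like KRT8. By Pearson's r of log2 CPM over 12220 other genes with a mean count of at least 100, the 5 nearest to KRT8 were SH3BGR (0.939), MFAP2 (0.932), FBXO6 (0.932), PRAC2 (0.930) and ATP5MC2 (0.927). KRT18 ranked 396 of the 12220 with r = 0.721, and 2414 with r = 0.364 once the means of the 5 groups were removed. The 5 nearest to KRT18 were FZR1 (0.983), CD276 (0.983), DRAXIN (0.981), GNA11 (0.980) and QSOX1 (0.978), and KRT8 ranked 2154 in its list. The points share libraries, depth and experiment, and the ranks with group means kept carry the difference between clones and WT that KRT8 was picked for, so these ranks are descriptions.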

How the data were processed

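Spheroid mRNA was sequenced by the authors from TruSeq Stranded libraries on a NovaSeq with paired reads. The deposited values were raw counts per gene, made by the authors after alignment to GRCh38 with HISAT2 (StringTie is also named in the submitters' notes), and genes with a count of 0 in any library had been removed. The counting program and its strand setting were not given in the sources used here. Library totals ran from 40077369 to 51311482 counts.

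Counts of 13920 genes were fitted with edgeR 4.0.16 (R 4.3.3; TMM, robust quasi-likelihood) in 1 model of 5 groups, WT and clone A1 in each pair of experiments and clone A2, which left 5 residual degrees of freedom. P-values were adjusted by Benjamini-Hochberg over all genes, with a threshold of 0.05, and every adjusted p comes from this fit unless another is named. Levels are CPM, counts scaled to library sizes after TMM correction. KRT8 was not tested in any contrast that involves a clone effect, and was tested between the early and late experiments, which use the same WT and clone A1 libraries but are balanced over the clone effect. The methods call the samples biological duplicates; nothing else says how the cultures were separated, so p-values measure the spread between these libraries. No libraries were duplicates: over 45 pairs the chi-square per degree of freedom of their counts was 6.74 or more.

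The members and gene lists were chosen with earlier results of these data known. Named genes were the members, all other listed keratins, SAMHD1, up to 4 called members of each list per comparison by size of log2 fold change, and the 5 genes most like KRT8 and KRT18. Genes named outside this rule, which were the markers in the check of the cell label and VIM, LMNB1, PRPH, EGFR, OXTR and MYLK, were chosen after their values were seen. Alternatives were DESeq2 1.42.0, RLE normalization, filterByExpr, only the libraries compared, the experiment as a block, leaving out each library and, added after seeing the data, an offset for GC content (loess span 0.3, 97.3% of genes with a value). Gene models were GENCODE main transcripts on GRCh38. Promoter sequences are not reported here.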

Additional observations from a re-analysis of the deposited data

Results flagged for a closer look

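The effect of clone A1 against WT differed between experiments 15 and 16 and experiments 10 and 11 for 5 of the 91 genes tested for such a difference, by an interaction term in edgeR, with adjusted p over all genes, of which 2.5% were called. For SAMHD1 the difference was -1.81 on the log2 scale (adjusted p 1.2e-06), since clone A1 stood at 22.5 and 23.0 CPM in the early pair and at 6.44 and 6.15 CPM in the late pair. For COL3A1 it was -1.24 (adjusted p 0.00387), with clone A1 at 12.03 and 12.7 CPM early and 2.76 and 2.98 CPM late, against 15.3 and 17.9 and then 8.46 and 9.75 CPM in WT. For FOS it was 0.915 (adjusted p 0.00363), with WT at 26.1 and 29.2 CPM early and 7.11 and 7.33 CPM late. For SYNM it was -0.455 (adjusted p 0.0225) and for ITGA6 0.471 (adjusted p 0.0347), and both calls were lost without any 1 of the 4 clone A1 libraries or the WT libraries of experiments 15 and 16, at adjusted p values of 0.0515 to 0.151. KRT18 was not among them. No library stood apart from the other 3 of its group in KRT8, KRT18, KRT10, KRT222 or SAMHD1 by Dixon's gap test. WT and clone A1 were each examined, with both pairs of experiments pooled. Where values split by pair, as for SAMHD1 in clone A1, this test could hardly flag a library.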

How the results depend on the processing

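Experiment numbers entered the fit as a replicate block in 1 alternative. The genes called then numbered 2411 (clone A1, late pair), 382 (clone A1, early pair), 3673 (clone A2), 1213 (clone A2 against A1), 1247 (change of the clone A1 effect) and 3534 (both clones), and KRT18 passed in clone A1 late (adjusted p 0.00413), in clone A1 early (0.0201) and in clone A2 (0.0393), so 1 keratin was called in each where 0 had been. Same-numbered libraries deviated from the 5 group means with correlations of 0.0844 to 0.151, all positive. The numbers were not taken as pairs because not all passed 0.1, an arbitrary cut-off. Whether KRT18 is called in clone A1 or clone A2 against WT depends on that choice. The contrast of early and late experiments could not be blocked.

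Other settings moved the number of genes called to 1978 (clone A1, late), 51 (clone A1, early), 3440 (clone A2), 1038 (clone A2 against A1) and 992 (change of the effect) with the GC offset, to 1852, 12 and 917 in clone A1 late, clone A1 early and clone A2 against A1 with only the libraries compared, and to 63 (clone A1, early) and 533 (change of the effect) by DESeq2. KRT18 was called in clone A1 late by DESeq2, with the GC offset and with only the libraries compared (1 keratin each), and lost its call in both clones against WT (0 keratins) with RLE normalization and with filterByExpr (adjusted p 0.0516 in each). Leaving out 1 library gave 343 to 2000 genes (clone A1, late), 7 to 1361 (clone A1, early), 1020 to 3199 (clone A2), 268 to 959 (clone A2 against A1), 88 to 1123 (change of the effect) and 658 to 3086 (both clones), and 0 to 1 keratins in clone A1 late, clone A1 early and both clones. The cause of these moves was not tested.

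Signs turned only for values near 0 or of few counts. KRT10 between the clones had log2 values of -0.00096 by DESeq2, -0.0010 with RLE normalization, -0.00011 with the block, -0.0018 with only the libraries compared and -0.077 to 0.072 with 1 library left out. KRT222, at 14 to 35 counts a library, was at -0.14 between the pairs of experiments with the GC offset. With 1 library left out it ran from -0.68 to 0.078 (clone A1, late), -0.0049 to 0.45 (clone A1, early), -0.89 to 0.22 (clone A2), -0.65 to 0.47 (clone A2 against A1) and -0.17 to 0.20 (between pairs), and KRT18's change of effect ran from -0.12 to 0.12. KRT8 kept its sign under all alternatives in each contrast with WT. Counts summed with pseudogenes could not be made, since none is listed. By Spearman's rho KRT18 ranked 305 among the genes like KRT8.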

Other observations

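Among the marker genes outside the keratins, CDH3 (P-cadherin, a basal epithelial gene) and COL3A1 (a fibrillar collagen of mesenchymal cells) were lower in the clones in experiments 15 and 16. CDH3 lay at 1.81 and 1.91 CPM in WT, 0.640 and 0.895 CPM in clone A1 and 0.538 and 0.664 CPM in clone A2, and its adjusted p for clone A1 of 0.00965 by edgeR became 0.114 without the clone A1 library of experiment 15 and 0.0511 and 0.0671 without the WT libraries of experiments 15 and 16. COL3A1 fell by 1.66 on the log2 scale in clone A1 and by 2.16 in clone A2. FN1, the matrix gene fibronectin, was called higher in clone A2, at 223 and 231 CPM against 163 and 169 CPM in WT. In clone A1 it lay at 185 and 196 CPM (adjusted p 0.207 by edgeR). The 9 listed mesenchymal markers of 14 summed to 1667 to 1974 CPM in WT, 1671 to 1803 CPM in clone A1 and 1690 to 1694 CPM in clone A2. Of the basal and myoepithelial markers 5 of 15 were listed. CDH3 was the 1 called in each clone in experiments 15 and 16, where 8.24% (clone A1) and 16.4% (clone A2) of all genes were called. In clone A1 the count was 0 without the clone A1 library of experiment 15 or either WT library of that pair, and 3 without the WT library of experiment 10 or of experiment 11, with only the libraries compared and with the experiments as blocks. The list had median log2 fold changes of 0.0858 in clone A1 and 0.0919 in clone A2. EGFR, OXTR and MYLK had log2 fold changes of 0.24, 0.15 and 0.086 in clone A1 and 0.15, 0.095 and 0.092 in clone A2, and were not called. ACTA2 went the other way, at -0.34 in clone A1 and -0.14 in clone A2, and was called in neither. The 5 summed to 83.1 to 111.3 CPM in WT, 82.4 to 97.5 CPM in clone A1 and 83.5 to 85.1 CPM in clone A2. Of the mesenchymal markers, COL3A1 was the 1 called in clone A1, and COL3A1 and FN1 were those called in clone A2, or 1 and 2 of 9, beside the same shares of all genes. Of the immune and endothelial markers 3 of 10 were listed, which summed to 2.75 to 4.63 CPM over the WT libraries and 3.10 to 3.43 CPM over those of clone A1.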
